A study of Danio rerio with 46 samples.

Results

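Gene expression in the trunks of 10 heat-exposed juvenile zebrafish was compared with that in only 3 of the 8 control trunks, those lowest in egg coat signal. The egg coat signal of a trunk was the mean log2 signal of the rows zp3.1, zp3a.1, zp2.2 and zpcx, genes for zona pellucida proteins that are made by growing oocytes. The 3 control trunks carry the labels' numbers 2, 4 and 6, and the heat trunks the numbers 11 to 20. These are 13 of the 18 juvenile trunks and of the 46 arrays of the series. The choice asks which differences of heat-exposed trunks are also seen against the controls with the least oocyte RNA, and all 31475 rows of the array were used.

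The heat group was held in water of 36 °C and the control group in water of 28 °C between 18 and 32 days post fertilization (dpf). All fish were then kept at 28 °C and sampled at 37 dpf, and the labels name no strain, genotype or transgene. The labels call the trunks biological replicates, and the sex of the juveniles was unknown. A trunk holds muscle, skin, viscera and the gonad, so that a difference in bulk RNA can come from fewer cells of a type or from less RNA per cell, which cannot be told apart. Total RNA was amplified and measured on single-colour arrays, and the values are log2 signals.

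Juvenile zebrafish of both sexes pass through a stage in which the gonad holds early oocytes. In future females these oocytes grow and deposit an egg coat, while in future males they are lost and the gonad becomes a testis. High temperature during this period is known to turn gonads towards testis in zebrafish. Control juveniles of unknown sex can therefore differ widely in oocyte RNA before any treatment.

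The egg coat signal was 9.87, 9.68 and 12.98 in control trunks 2, 4 and 6, and 14.26 to 14.79 in the other 5 control trunks. The last trunk inside the choice was thus control 6 at 12.98 and the first outside it control 9 at 14.26. Control 6 lay nearer to the 5 controls left out than to controls 2 and 4, so "poor in oocytes" describes controls 2 and 4 better than control 6. In heat trunks the signal was 6.13 at the lowest, 6.66 at the median and 10.37 at the highest. The highest was heat trunk 11, which lay above controls 2 and 4, and the other 9 heat trunks lay below all 8 controls.

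**Figure D1:**
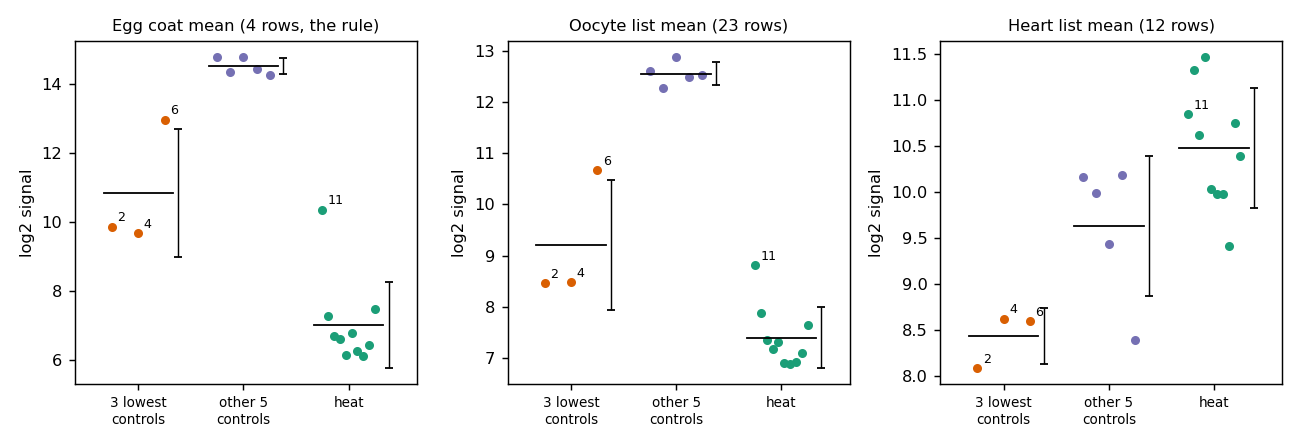
Log2 signal of each trunk (points), with the group mean (line) and SD (bar), for the egg coat mean that chose the controls, the oocyte list mean and the heart list mean; control trunks 2, 4 and 6 and heat trunk 11 are numbered. Control 6 stands at 12.98 in egg coat signal, apart from controls 2 and 4, and the heart list separates the 3 chosen controls, at 8.08 to 8.62, from all heat trunks.

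Other oocyte and germ cell genes followed the egg coat rows among the 8 controls, and their values are given as a description without a test, since the choice of controls fixed them in part. The oocyte list had a mean of 8.46, 8.48 and 10.67 in controls 2, 4 and 6 and of 12.27 to 12.88 in the other controls. Heat trunks ranged from 6.88 to 8.81. The median difference of its 23 measured rows, heat minus control, was −1.55 against the 3 controls and −5.96 against the other 5. The choice of controls thus left a smaller difference in oocyte RNA and did not remove it.

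The germ cell helicase gene vasa (ddx4) stood at 9.12, 8.96 and 11.01 in the 3 controls and at 5.98, 7.97 and 9.01 (lowest, median and highest) in heat trunks. Buckyball (buc), which organizes the germ plasm of the oocyte, stood at 8.72, 8.19 and 11.59 in the 3 controls, and heat trunks ranged from 4.81 to 7.92. The oocyte growth factor gene gdf9 stood at 5.71, 5.70 and 7.08, and heat trunks ranged from 4.76 to 5.90. In buc the 2 groups did not overlap, while in vasa and gdf9 the highest heat trunk reached the range of controls 2 and 4. The egg coat gene zp3a.2 stood at 10.73, 10.25 and 13.19 against 7.03, 7.65 and 10.74, the row ddx41 at 9.38, 8.89 and 12.37 against 5.33, 6.21 and 8.25, and ca15b at 9.31, 9.97 and 12.10 against 7.70, 7.99 and 9.45. The median of the 23 germ cell and piRNA rows was −0.66 against the 3 controls and −3.57 against the other 5.

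Cell cycle genes, which are abundant in oocytes as stored mRNA, showed the same dependence on the choice of controls. Their list mean was 10.39, 10.33 and 10.60 in the 3 controls, 9.77 to 10.73 in heat trunks and 11.15 to 11.54 in the other 5 controls. The median difference of the 51 rows was 0.07 against the 3 controls and −0.55 against the other 5. As 31 of the 51 followed the egg coat, the choice of controls fixed these values in part, and the source of this RNA was not tested. Of the steroid synthesis enzymes, cyp11a1, cyp17a1 and hsd3b1 were picked after their values were seen, and cyp11c1, described further on, differed little between the 2 sets of controls. The side-chain cleavage enzyme gene cyp11a1 (cyp11a1.1) stood at 6.97, 6.43 and 8.18 in the 3 controls, at 5.75 to 6.75 in heat trunks and at 9.97 to 11.26 in the other 5 controls. The gene cyp17a1, whose enzyme makes androgen precursors, differed by 0.62 from the 3 controls and by −2.22 from the other 5. For hsd3b1, an enzyme gene common to all steroid hormones, these differences were −0.03 and −2.73.

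In all, 317 rows passed limma's test at an adjusted p under 0.05 against the 3 controls, which is 1.01% of rows. Of these, 168 were higher in heat trunks (0.534%) and 149 lower (0.473%), and 4781 rows had an unadjusted p under 0.05. Against the other 5 controls, 3900 rows passed (12.4%), 2038 higher (6.47%) and 1862 lower (5.92%). Both comparisons share the heat trunks, and the number of controls differs too: the median standard error of a difference was 0.278 with 3 controls and 0.227 with 5. The median difference of all rows was 0.012 against the 3 controls and 0.074 against the other 5.

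Rows that follow the egg coat were set apart with a correlation of at least 0.7 in size with the egg coat signal over the 8 controls, which 3919 rows reached. Of the 317 rows, 82 followed it, 27 of them higher and 55 lower in heat trunks. In 273 of the 317 the values of the 10 heat and 3 control trunks did not overlap. Over all rows 1278 (4.06%) had no overlap, 706 higher (2.24%) and 572 lower (1.82%). The 235 called rows that did not follow the egg coat were 141 higher and 94 lower rows, and the results below concern mainly these. At a limit of 0.5, 155 called rows remained, so the choice of controls can still bear on some of the 235. Called genes described below with a correlation between the 2 limits include cmlc1, epd, fos, gcm2, pax5, ier2, ptgs2b, meig1 and cd37. Others are cbln7, pax1b, bricd5, ponzr3, s100a11, nfil3-5 and the collagen IX rows col9a1a and col9a1. Of genes not called against the 3 controls, hbba2, gsdf and cyp19a1a lie there too. In 44 of the 141 higher rows all 10 heat trunks lay above all 8 controls, and in 49 of the 94 lower rows they lay below all 8. Over the whole array, 194 rows (0.616%) lay above and 157 (0.499%) below all 8 controls in every heat trunk. In the remaining rows at least 1 of the 8 controls reached into the heat range or past it.

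Several interferon-stimulated antiviral genes were lower in heat trunks. These genes are switched on when type I interferon, released on sensing viral nucleic acid, signals to the nucleus, and their proteins block viral replication or mark viral RNA. Of 38 measured rows, 7 fell and 0 rose, where 0.473% of all rows fell and 0.534% rose. The median difference was −0.41 beside 0.012 over all rows. The list mean was 9.83, 9.68 and 9.71 in the 3 controls and 8.63 to 9.30 in heat trunks, without overlap.

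The largest fall of the list was in ifit8 (row zgc:123282), a member of the family of interferon-induced proteins with tetratricopeptide repeats. It stood at 10.47, 10.60 and 11.33 in controls 2, 4 and 6 and at 5.87, 6.51 and 7.79 (lowest, median and highest) in heat trunks. Every heat trunk lay far below every control, including the other 5 at 10.14 to 11.89. The difference was −4.09 ± 0.37 (SE), a 17.1-fold fall (adjusted p = 0.000297), and it was −4.29 against the other 5 controls. The related gene ifit2 (ifit15) stood at 12.73, 12.06 and 13.01 in the 3 controls and at 6.63, 8.35 and 9.98 in heat trunks. It fell by 4.35 on the log2 scale, with an SE of 0.61 (adjusted p = 0.00602).

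The gene rsad2 encodes viperin, an enzyme that makes a chain-terminating nucleotide. It stood at 9.13, 9.25 and 9.05 in the 3 controls and at 5.30, 6.05 and 7.23 in heat trunks, and the other 5 controls lay at 8.13 to 10.60. The difference was −2.96 ± 0.34 (adjusted p = 0.00154), and no heat trunk reached a control. Its neighbour in function, cmpk2, a mitochondrial nucleotide kinase gene, stood at 9.28, 9.49 and 8.23 in the 3 controls and at 6.02, 7.34 and 7.73 in heat trunks (−1.93 ± 0.37, adjusted p = 0.0292).

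The ubiquitin-like modifier gene isg15 stood at 11.93, 11.19 and 11.82 in the 3 controls, and heat trunks ranged from 9.53 to 10.62 (−1.56 ± 0.24, adjusted p = 0.00922). The GTPase gene mxe stood at 8.62, 9.09 and 8.98, and heat trunks ranged from 6.10 to 7.98 (−1.90 ± 0.31, adjusted p = 0.0131). The gene stat2, for a transcription factor that carries the interferon signal, fell too. The 3 controls stood at 12.38, 12.54 and 12.86 and heat trunks at 10.07 to 11.50, a difference of −1.53 ± 0.27 (adjusted p = 0.0183). The helicase-like gene znfx1, an antiviral RNA sensor in mammals, fell from 12.21, 11.77 and 12.20 to a median of 10.43 (−1.68 ± 0.24, adjusted p = 0.00742). In isg15, stat2 and znfx1 all heat trunks also lay below the other 5 controls, while in mxe 1 heat trunk did not.

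Members of the list did not all move down. The factor gene irf1a stood at 9.94, 10.44 and 9.16 in the 3 controls and at 10.37 to 12.43 in heat trunks (1.38, adjusted p = 0.099). The calls of ifit8 and rsad2 held when each of the 13 trunks was left out in turn. Those of ifit2 (adjusted p = 0.0511) and znfx1 (0.0561) ended without control 6, and that of mxe ended without control 4 or 6. The call of cmpk2 ended without any 1 of the 3 controls or without heat trunk 14. For isg15 and stat2, fits without single trunks were not examined.

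A few genes of lymphocytes were among the other falls. The B cell surface gene cd37 stood at 11.06, 11.24 and 11.53 in the 3 controls and at 8.26, 8.83 and 9.82 in heat trunks. The other 5 controls lay at 9.93 to 10.95, between both, so the difference was −2.28 ± 0.35 against the 3 controls (adjusted p = 0.00922) and −1.59 against the other 5. The immunoglobulin heavy chain row ighz stood at 6.92, 6.98 and 7.68 in the 3 controls and at 5.08, 5.85 and 6.24 in heat trunks (−1.40 ± 0.23, adjusted p = 0.014). For pax5, which fixes the B cell fate, the values were 8.41, 8.67 and 8.55 against 6.06, 6.99 and 7.58 (−1.72 ± 0.27, adjusted p = 0.0112). The other 5 controls stood at 7.18 to 8.56 in pax5, overlapping heat trunks, with a difference of −0.92. The leukocyte list as a whole had 2 of 25 rows lower, beside 0.473% of all rows, none higher and a median of −0.16. Its mean overlapped between heat trunks (8.67 to 9.63) and the 3 controls (9.25 to 9.73). Without control 6 the calls of cd37, ighz and pax5 all ended (adjusted p = 0.065, 0.0954 and 0.0649).

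A few immediate early genes, which are transcribed within minutes of a stimulus without new protein synthesis, were higher in heat trunks. Of 38 measured rows 3 rose, beside 0.534% of all rows, and 0 fell, with a median of 0.41 against the 3 controls and 0.55 against the other 5. The AP-1 subunit gene fos (fosab) stood at 11.98, 11.70 and 11.39 in the 3 controls, at 13, 13.99 and 14.34 in heat trunks and at 11.06 to 11.69 in the other 5 controls. No heat trunk reached a control, and the difference was 2.2 ± 0.25, a 4.60-fold rise (adjusted p = 0.00137). This call held without each of the 13 trunks in turn.

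The activity-dependent transcription factor gene npas4a stood at 6.52, 6.27 and 5.17 in the 3 controls and at 7.87, 9.44 and 10.70 in heat trunks (3.34 ± 0.64, adjusted p = 0.0283). The early response gene ier2 (ier2a) stood at 11.88, 11.23 and 10.97 against 12.29, 12.80 and 13.71 (1.5 ± 0.31, adjusted p = 0.041). The inducible cyclooxygenase gene ptgs2b, of the NF-kB and prostaglandin list, stood at 10.09, 9.86 and 9.56 against 10.36, 11.61 and 12.82 (1.80 ± 0.37, adjusted p = 0.0387). In these 3 genes all heat trunks lay above all 8 controls. Each of these 3 calls ended without any 1 of the 3 controls, and those of ier2 and ptgs2b ended without several single heat trunks too, among them heat trunk 13.

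In the immediate early list mean, control 2 was the highest of the 8 controls, at 10.53 beside 9.89 to 10.10 in the other 7. Heat trunks ranged from 10.29 to 10.97, so control 2 lay within their range. The NF-kB and prostaglandin list had 1 of 36 rows higher, beside 0.534% of all rows, and a median of −0.02. It also had its highest control in trunk 2, at 9.97. The part of this trunk in the smaller differences of these lists was not tested.

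**Figure D2:**
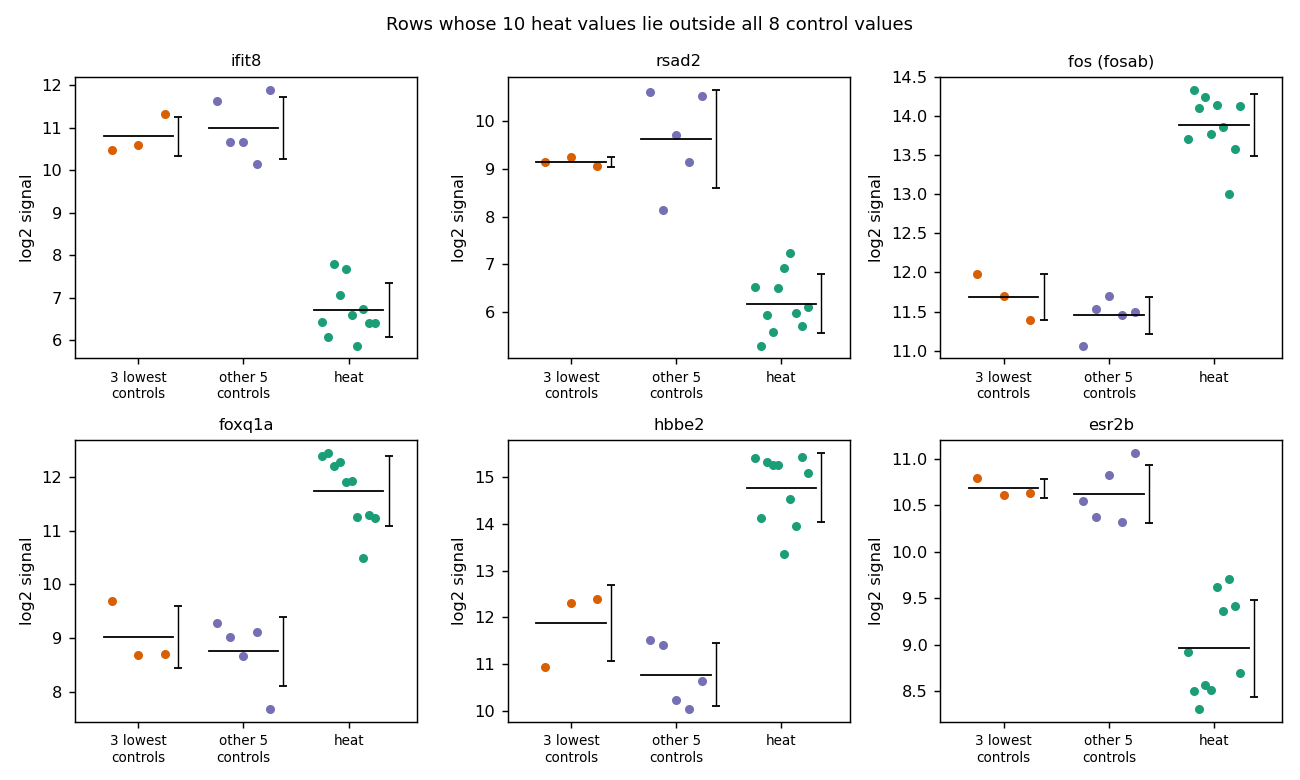
Log2 signal of each trunk (points) in the 3 chosen controls, the other 5 controls and the 10 heat trunks, with mean (line) and SD (bar), for 6 genes. In each gene all 10 heat trunks lie outside the range of all 8 controls, as in ifit8 with heat values up to 7.79 and controls from 10.14.

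Most measured embryonic globin genes were higher in heat trunks. Zebrafish red cells change from embryonic to adult hemoglobin chains in larval and juvenile life, and the genes of each kind lie in clusters of close copies, so signals of single copies may be shared. Of 5 measured embryonic rows 3 rose, beside 0.534% of all rows, and 0 fell. The embryonic beta chain gene hbbe2 stood at 10.94, 12.30 and 12.40 in the 3 controls and at 13.34, 15.17 and 15.42 in heat trunks. It differed by 2.89 ± 0.45, a 7.42-fold rise (adjusted p = 0.0103), and by 4.00 against the other 5 controls, which lay at 10.04 to 11.52.

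The alpha chain gene hbae1 (hbae1.1) stood at 11.10, 12.75 and 12.92 in the 3 controls and at 13.30, 15.07 and 15.32 in heat trunks (2.36 ± 0.51, adjusted p = 0.0466). For hbbe1.1 the values were 11.22, 11.98 and 13.49 against 13.47, 14.80 and 15.35 (2.3 ± 0.50, adjusted p = 0.047), with control 6 inside the heat range. The gene hbae3 stood at 5.81, 5.46 and 6.23 in the 3 controls and at 6.74 to 15.03 in heat trunks, a difference of 5.23 ± 1.60 that did not pass (adjusted p = 0.141). Heat trunks thus differed widely among themselves in hbae3, and all lay above the 3 controls. Of the 13 trunks left out in turn, control 2 was the only one without which the call of the gene hbbe2 ended (adjusted p = 0.0632), and it also ended with the neural list mean as a covariate (adjusted p = 0.0522). The calls of hbae1 and hbbe1.1 ended without any 1 of the 3 controls and without 8 and 7 single heat trunks.

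None of the 3 measured adult globin rows passed. The adult beta chain gene hbba2 (row zgc:92880) stood at 10.37, 11.15 and 11.36 in the 3 controls and at 6.05, 8.40 and 10.44 in heat trunks (−2.51 ± 0.71, adjusted p = 0.107). For hbaa2, an adult alpha chain gene, the 3 controls stood at 11.39, 11.98 and 12.09 and heat trunks at 8.07 to 11.56 (−2.08 ± 0.66, adjusted p = 0.151). The 2 genes differed by −3.08 and −2.53 from the other 5 controls, where they passed (adjusted p = 0.00129 and 0.00402). Among controls hbba2 had a correlation of 0.66 with the egg coat, so the choice of controls can bear on its difference. The 18 other red cell rows, for membrane, heme and transcription factor genes, had a median of −0.05 with none called.

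Both measured genes for the second class of estrogen receptor were lower in heat trunks. In fish these nuclear receptors bind estradiol and act in liver, brain and gonad. The gene esr2b stood at 10.80, 10.61 and 10.64 in the 3 controls, at 8.31, 8.81 and 9.70 in heat trunks and at 10.32 to 11.06 in the other 5 controls. The difference of −1.72 ± 0.30 (adjusted p = 0.0174) was near the −1.66 against the other 5, and no heat trunk reached a control. The gene esr2a stood at 10.39, 10.53 and 10.86 in the 3 controls and at 8.70, 9.15 and 10.02 in heat trunks, again without overlap with any control (−1.35 ± 0.29, adjusted p = 0.046). The call of esr2b ended without any 1 of the 3 controls (adjusted p up to 0.0782), and that of esr2a ended without 11 of the 13 trunks, each left out alone.

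These were the 2 of 37 gonad somatic and steroid rows that passed, both lower, beside 0.473% of all rows lower. The median of the list was −0.16. The testis factor gene dmrt1 stood at 6.35, 6.95 and 7.51 in the 3 controls and at 6.34, 6.59 and 6.93 in heat trunks, a difference of −0.32 (95% interval −0.77 to 0.13, adjusted p = 0.503). The anti-Müllerian hormone gene amh differed by −0.04 (−0.69 to 0.61, adjusted p = 0.969) and gsdf, a Sertoli cell growth factor gene, by −0.63 (−1.74 to 0.48, adjusted p = 0.605). The gene sox9a, of the same cells, followed the egg coat among controls, and differed by 0.24 from the 3 controls and by 0.62 from the other 5. None of dmrt1, amh and gsdf passed in either direction against the 3 controls, and the interval of gsdf is wide. Against the other 5 controls, dmrt1 differed by −0.42 (adjusted p = 0.0446) and gsdf by −1.18 (adjusted p = 0.0492), and both passed. The difference of amh from these 5 was 0.11 (adjusted p = 0.796). Among controls dmrt1 and gsdf had correlations of 0.49 and 0.64 with the egg coat. The choice of controls can therefore bear on both differences.

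The aromatase gene cyp19a1a, which makes estradiol in the ovary, stood at 5.0, 5.96 and 5.48 in the 3 controls and at 4.79, 5.58 and 6.67 in heat trunks. Its difference was 0.14 (−0.61 to 0.89, adjusted p = 0.892), and −1.03 against the other 5 controls, which lay at 5.71 to 7.26. The ovarian factor gene foxl2 (foxl2a), which followed the egg coat among controls, differed by 1.06 from the 3 controls and by 0.08 from the other 5. The androgen synthesis gene cyp11c1 (0.47, −0.46 to 1.40, adjusted p = 0.652) and the androgen receptor gene ar (−0.49, −0.91 to −0.06, adjusted p = 0.265) did not pass either. The ar interval is that of this gene alone, without adjustment for the number of rows. Among 22 meiosis rows only meig1, which acts in spermiogenesis in mice, passed as higher, beside 0.534% of all rows. It rose from 10.41, 10.44 and 10.34 to 11.06, 11.46 and 12 (1.1 ± 0.19, adjusted p = 0.0174). This call ended without any 1 of the 3 controls. The synaptonemal complex gene sycp3, which followed the egg coat among controls, differed by 0.28 from the 3 controls and by −0.43 from the other 5.

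Sperm axoneme and cilia genes, which are shared by sperm tails and the motile cilia of other tissues, had 0 of 39 rows called in either direction against the 3 controls. Their median was 1.0 against the 3 controls and 0.85 against the other 5. Against the 3 controls, 31 differences were positive, beside 16175 of all 31475 rows. In limma 19 rows had an unadjusted p under 0.05, all higher in heat trunks, where 4781 of all rows had one in either direction. Against the other 5 controls, 17 of the 39 rows passed as higher and 1 as lower, beside 6.47% and 5.92% of all rows. The tektin gene tekt3 stood at 5.81, 6.17 and 5.23 in the 3 controls and at 6.26 to 8.70 in heat trunks (1.90 ± 0.45, adjusted p = 0.0584). The thymus and testis gene tbata stood at 6.52, 7.61 and 7.61 against 7.75 to 10.90 (2.32 ± 0.54, adjusted p = 0.0569). In both, all heat trunks lay above the 3 controls, and neither passed against these 3. The list mean was 6.93 to 7.05 in the 3 controls and 6.92 to 8.92 in heat trunks, with heat trunk 19 below the 3 controls.

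Other genes beyond all controls included foxq1a, a forkhead factor gene, and slc25a48, a mitochondrial carrier gene. In foxq1a the 3 controls stood at 9.69, 8.68 and 8.70 and heat trunks at 10.49, 11.91 and 12.44 (2.72 ± 0.39, adjusted p = 0.00602), and the other 5 controls lay at 7.68 to 9.27. In slc25a48 they stood at 10.63, 10.68 and 11.01 against 7.08, 8.38 and 9.63 (−2.24 ± 0.44, adjusted p = 0.0322). The call of foxq1a ended without control 6 alone (adjusted p = 0.054), and that of slc25a48 without any 1 of the 3 controls or heat trunk 13 or 15. The gene cyp39a1, for an oxysterol hydroxylase of bile acid synthesis, fell from 8.70, 11.01 and 10.25 to a median of 7.35 (−2.81 ± 0.46, adjusted p = 0.0131), but overlapped with the other 5 controls, which reached down to 7.30. The cerebellin-like gene cbln7 stood at 7.64, 8.06 and 8.35 against 5.51, 6.30 and 7.53 (−1.68 ± 0.36, adjusted p = 0.0461). Its other 5 controls, at 6.46 to 7.66, overlapped with heat trunks, and the call ended without 11 of the 13 trunks, each left out alone.

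Heart muscle genes were among the rises, and in cmlc1 the 3 chosen controls stood apart from 4 of the other 5. The cardiac myosin light chain gene cmlc1 stood at 9.77, 10.13 and 10.02 in the 3 controls and at 12.80, 14.39 and 14.70 in heat trunks (4.20 ± 0.33, adjusted p = 0.000146), and its call held without each trunk in turn. Of the other 5 controls, 4 stood at 13.37 to 14.27, inside the heat range, and control 9 at 9.67. The difference from these 5 was 1.03 (adjusted p = 0.287).

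The cardiac troponin gene tnnt2a and the atrial myosin gene myh6 followed the egg coat among controls and are described without a test. For tnnt2a the 3 controls stood at 8.39, 9.59 and 9.72, heat trunks at 11.54 to 14.15 and the other 5 controls at 10.13 to 13.28. For myh6 they stood at 5.05, 5.83 and 5.92, 8.35 to 12.19 and 5.42 to 9.29. The correlation of cmlc1 with the egg coat, 0.69, lay just under the limit that set these 2 apart. In all, 3 of 12 heart rows were higher, tnnt2a and myh6 among them, beside 0.534% of all rows, and none lower. The list median was 1.71 against the 3 controls and 0.89 against the other 5. The heart list mean was 8.08, 8.62 and 8.59 in the 3 controls, 8.38 in control 9, 9.44 to 10.18 in the other 4 controls and 9.40 to 11.47 in heat trunks. The 3 chosen controls were thus low in heart RNA, and no heat trunk was as low in heart RNA. In oocyte RNA they were the lowest of the 8 controls, control 6 least so at an oocyte list mean of 10.67. All heat trunks but trunk 11 lay lower still in that mean.

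Whether the amount of heart tissue in a trunk moved the other results was not tested on its own. With the heart list mean as a covariate, an alternative chosen after seeing the data, 0 rows passed in limma and 1300 had an unadjusted p under 0.05. The covariate does not overlap between the groups compared, which by itself leaves little to tell them apart.

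Several genes of gill, head and pharynx had the same order of groups as the heart genes. Ependymin (epd), a secreted protein gene of brain and meninges, stood at 9.48, 9.91 and 8.8 in the 3 controls, at 11.41, 15.21 and 15.40 in heat trunks and at 9.76 to 14.85 in the other 5 controls. The difference was 5.22 ± 0.69 against the 3 controls (adjusted p = 0.00351), a call that held without each trunk in turn, and 2.0 against the other 5 (adjusted p = 0.124). Of 44 brain, eye and pituitary rows epd was the only 1 that passed against the 3 controls, where 1.01% of all rows passed. The median of that list was 0.25 against the 3 controls and 0.20 against the other 5. From the 3 controls, 30 differences were positive and 14 negative, beside 16175 and 15300 over all rows. The sclerotome and pharyngeal pouch factor gene pax1b stood at 8.25, 7.56 and 8.66 in the 3 controls and at 9.10, 11.03 and 11.71 in heat trunks (2.6 ± 0.49, adjusted p = 0.0275), with the other 5 controls at 8.03 to 10.15. It ended without any 1 of the 3 controls.

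Of the largest rises without overlap, 3 more had the other 5 controls spread over both ranges. The gene bricd5, for a BRICHOS domain protein, stood at 5.15, 5.25 and 5.52 in the 3 controls, at 5.59, 11.04 and 12.44 in heat trunks and at 4.60 to 10.17 in the other 5 controls (5.26 ± 1.02, adjusted p = 0.0301). The gene ponzr3 stood at 6.86, 5.65 and 6.70 in the 3 controls, at 7.10, 11.76 and 12.94 in heat trunks and at 6.79 to 12.74 in the others (4.66 ± 0.96, adjusted p = 0.0375). The calcium-binding protein gene s100a11 stood at 8.27, 8.77 and 8.76, at 9.25, 12.72 and 13.80 and at 8.73 to 12.61 (3.69 ± 0.76, adjusted p = 0.0386). The calls of all 3 ended without any 1 of the 3 controls and without heat trunk 13, 14 or 15, and none passed against the other 5 controls. Those of ponzr3 and s100a11 also ended without heat trunk 12 or 17, that of ponzr3 without 19 and that of s100a11 without 20.

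Ionocyte and gill genes, which serve the uptake of ions and the release of ammonia in skin and gill, had 5 of 33 rows higher and 0 lower. Of all rows 0.534% were higher, and the 5 include trpv6, which followed the egg coat among controls and is described without a test. The ammonia transporter gene rhcga stood at 8.43, 9.75 and 7.70 in the 3 controls, at 10.23, 12.87 and 13.41 in heat trunks and at 7.12 to 12.46 in the other 5 controls (3.90 ± 0.62, adjusted p = 0.011). The factor gene gcm2, needed for ionocytes and parathyroid, stood at 5.06, 5.03 and 6.05 in the 3 controls and at 5.66, 10.76 and 11.56 in heat trunks (4.74 ± 0.98, adjusted p = 0.0393). In gcm2 heat trunk 18 lay inside the control range and the other 9 well above it.

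The potassium channel gene kcnj1a.2 (3.2 ± 0.56, adjusted p = 0.0186) and the carbonic anhydrase gene ca15a (2.55 ± 0.51, adjusted p = 0.0337) were higher as well. The calcium channel gene trpv6 followed the egg coat among controls, and stood at 6.20, 6.04 and 8.12 in the 3 controls and at 7.97 to 11.86 in heat trunks. The list median was 0.59 against the 3 controls and 0.79 against the other 5, and its mean was 8.93 to 9.07 in the 3 controls and 9.09 to 10.71 in heat trunks. Against the other 5 controls, gcm2 differed by 2.47 (adjusted p = 0.0839) and kcnj1a.2 by 1.84 (adjusted p = 0.0526), while rhcga differed by 3.38 and passed (adjusted p = 0.00827). The call of rhcga ended without control 2 or 6, and those of gcm2 and kcnj1a.2 without any 1 of the 3 controls. That of gcm2 also ended without heat trunk 12, 13, 14, 15, 17, 19 or 20, each left out alone. For ca15a, fits without single trunks were not examined.

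**Figure D3:**
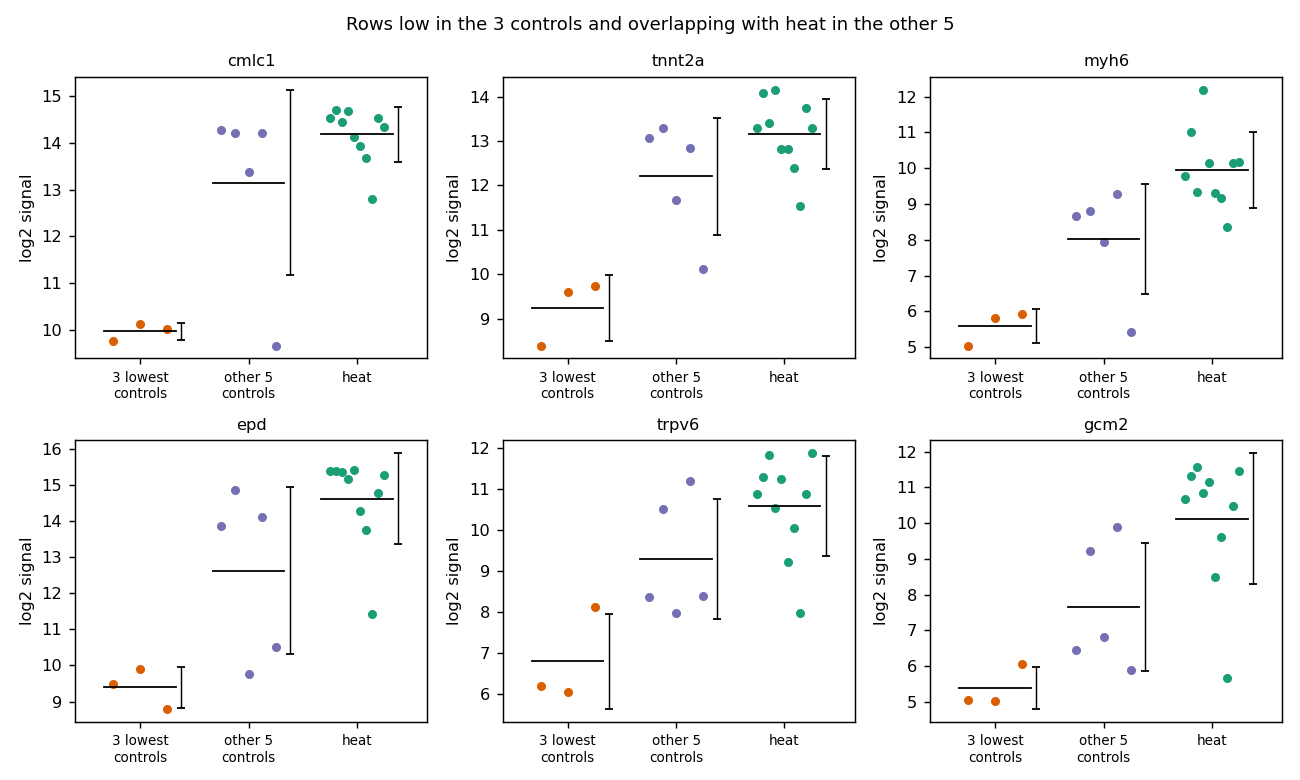
Log2 signal of each trunk (points) in the 3 chosen controls, the other 5 controls and the 10 heat trunks, with mean (line) and SD (bar), for 6 genes of heart, brain, ionocytes and gill. Except in tnnt2a, the other 5 controls spread across both ranges, as in cmlc1, where 4 of them stand at 13.37 to 14.27 and control 9 at 9.67. In tnnt2a they stand at 10.13 to 13.28, above the 3 chosen controls.

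Of the neural genes few passed. The list had 1 of 45 rows higher, beside 0.534% of all rows, and 0 lower, with medians of 0.75 and 0.74. In limma 22 rows had an unadjusted p under 0.05, 19 of them higher, where 4781 of all 31475 rows had one in either direction. The G protein subunit gene gng3 stood at 10.91, 11.12 and 10.66 in the 3 controls and at 11.55, 12.22 and 13.08 in heat trunks (1.37 ± 0.30, adjusted p = 0.0463), and its call ended without 10 of the 13 trunks, each left out alone. The list mean was 9.58 to 9.78 in the 3 controls and 9.71 to 11.18 in heat trunks. The neurogenic factor gene ascl1b stood at 5.48, 5.62 and 5.75 against 6.97, 9.06 and 10.16 (3.15 ± 0.54, adjusted p = 0.0174), and its call ended without any 1 of the 3 controls.

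Of 21 cartilage and bone rows 3 rose, beside 0.534% of all rows, and 0 fell, with medians of 0.69 and 0.64. The main cartilage collagen gene col2a1a stood at 9.56, 10.60 and 8.77 in the 3 controls and at 10.95, 11.94 and 13.75 in heat trunks (2.41 ± 0.53, adjusted p = 0.0486). The collagen IX gene col9a1a (row zgc:194937) stood at 7.42, 7.60 and 7.56 against 8.47, 9.62 and 11.32 (2.23 ± 0.46, adjusted p = 0.0397). The row col9a1, another collagen IX gene, rose by 1.54 ± 0.31 (adjusted p = 0.0368). In none of the 3 did the groups overlap, and all 3 calls ended without any 1 of the 3 controls and without several single heat trunks. The call of col2a1a also ended with arrays centred on their median.

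Hox genes mark position along the body axis, with low paralogue numbers expressed further forward. Of 18 rows of paralogues 1 to 5, 2 rose, beside 0.534% of all rows, and 0 fell, with medians of 0.58 and 0.77. Of 23 rows of paralogues 9 to 13, none passed, with medians of −0.34 against the 3 controls and 0.16 against the other 5. The gene hoxb5a stood at 9.23, 9.35 and 9.68 in the 3 controls and at 9.83, 10.76 and 10.97 in heat trunks (1.2 ± 0.24, adjusted p = 0.0322), a call that ended without any 1 of the 3 controls or heat trunk 13 or 15. The gene hoxb4a stood at 6.71, 7.20 and 6.16 against 7.03, 8.05 and 8.42 (1.3 ± 0.29, adjusted p = 0.048), overlapping with control 4, and its call ended without any 1 of the 3 controls, without 7 single heat trunks and with arrays centred on their median. The anterior list mean was 8.63 to 9.03 in the 3 controls and 9.08 to 9.80 in heat trunks, without overlap, while the posterior means overlapped, at 9.33 to 9.64 and 8.59 to 9.59. The part of the cut along the body axis in the gill, neural, cartilage and heart values was not tested.

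Growth, clock and stress genes gave few calls. The binding protein gene igfbp5b rose from 8.17, 8.14 and 8.37 to a median of 9.79 (1.59 ± 0.26, adjusted p = 0.0131), and the growth hormone receptor gene ghrb fell from 12.03, 11.38 and 12.14 to a median of 10.37 (−1.43 ± 0.28, adjusted p = 0.0283). Against the other 5 controls, ghrb differed by −0.58 and did not pass (adjusted p = 0.155). The clock-linked repressor gene nfil3-5 was the 1 of 42 circadian rows that passed (−1.17 ± 0.24, adjusted p = 0.0371), where 1.01% of all rows passed. The antioxidant factor gene nfe2l2b was the 1 of 41 hypoxia and oxidative stress rows (1.09 ± 0.24, adjusted p = 0.0499). Each of these 4 calls ended without control 2 and without control 6, and that of nfe2l2b also without 7 single heat trunks and with arrays centred on their median (adjusted p = 0.0559). The call of nfil3-5 also ended without heat trunk 12, 14 or 19, and that of ghrb without heat trunk 13.

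No heat shock or chaperone row passed among 57, at 5 days after the return to 28 °C, with a median of −0.01. The inducible chaperone gene hsp70l stood at 9.24, 10.65 and 8.32 in the 3 controls and at 9.18 to 11.06 in heat trunks (0.85, interval −0.10 to 1.80, adjusted p = 0.386). The cytosolic chaperone gene hsp90aa1.1 differed by −0.08 (−0.45 to 0.29) and the cold-induced RNA-binding gene cirbp (cirbpb) by −0.01 (−0.29 to 0.26). Of 26 glucocorticoid response rows none passed, with a median of −0.22. The receptor gene nr3c1 differed by 0.26 (adjusted p = 0.533). Its co-chaperone gene fkbp5, a common target of the receptor, followed the egg coat among controls. The difference of fkbp5 was −0.66 from the 3 controls and −0.51 from the other 5, with 9 of 10 heat trunks below all 8 controls. The maintenance DNA methyltransferase gene dnmt1, which followed the egg coat among controls, differed by 0.18 from the 3 controls and by −0.62 from the other 5.

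Of 41 cholesterol and lipid synthesis rows none passed in limma. In the list 8 rows had an unadjusted p under 0.05, all lower, where 4781 of all 31475 rows had one in either direction. Of the differences 38 were negative, beside 15300 over all rows, with a median of −0.47 against the 3 controls and −0.35 against the other 5. Extracellular matrix rows had a median of −0.35 with none of 37 called. The lists of liver, intestine, exocrine pancreas, kidney, skeletal muscle, epidermis, pigment cells, chromatin and vitellogenin had no called row, and their medians lay between −0.16 and 0.10. The yolk precursor gene vtg1 differed by 0.22 (interval −0.43 to 0.87, adjusted p = 0.781). Skeletal muscle list means of 12.92 to 13.39 in all 18 trunks are those of a tissue rich in muscle, as the label trunk implies.

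**Figure D4:**
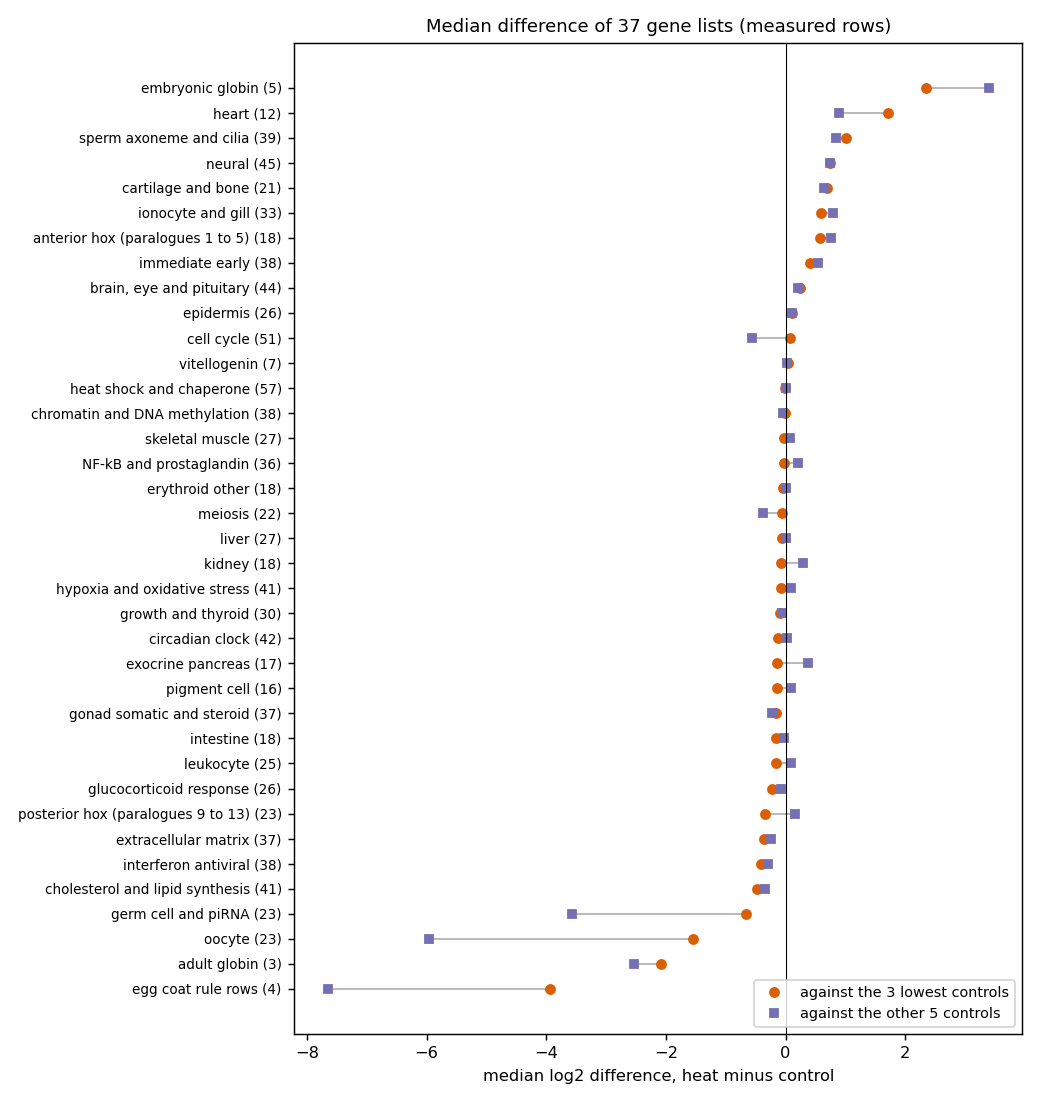
Median log2 difference, heat minus control, of 37 gene lists (measured rows in brackets) against the 3 chosen controls (circles) and the other 5 controls (squares). Egg coat, oocyte and germ cell medians move most with the choice, from −1.55 to −5.96 for the oocyte list, while the interferon list moves from −0.41 to −0.30 and the immediate early list from 0.41 to 0.55.

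The number of rows called rested on few controls. Without control 2, 4 or 6 the count was 100, 100 and 38, and of the 51 named genes that passed, 17, 18 and 8 still passed. Without 1 heat trunk it lay between 160, without trunk 13, and 557, without trunk 18. Among rows that did not follow the egg coat, cmlc1, epd, fos, rsad2 and ifit8 were the named genes that passed in all 13 of these fits. Their correlations with the egg coat were 0.69, 0.54, −0.66, 0.27 and 0.32, so cmlc1, epd and fos would not stay at a limit of 0.5. With controls 2 and 4 alone against heat trunks 12 to 20, 164 rows passed, 58 higher and 106 lower. Of the 51 named genes 20 still passed. This setting left out control 6 and heat trunk 11, the highest of the 3 controls and of the heat trunks in egg coat signal. With the neural list mean as a covariate 175 rows passed, and of the named genes that did not follow the egg coat cmlc1, cyp39a1, epd, fos, foxq1a, ifit2, ifit8, pax5, ptgs2b, rsad2 and znfx1 still did. Heat trunk 18 was the lowest heat trunk in the heart list and in epd, bricd5 and gcm2.

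**Figure D5:**
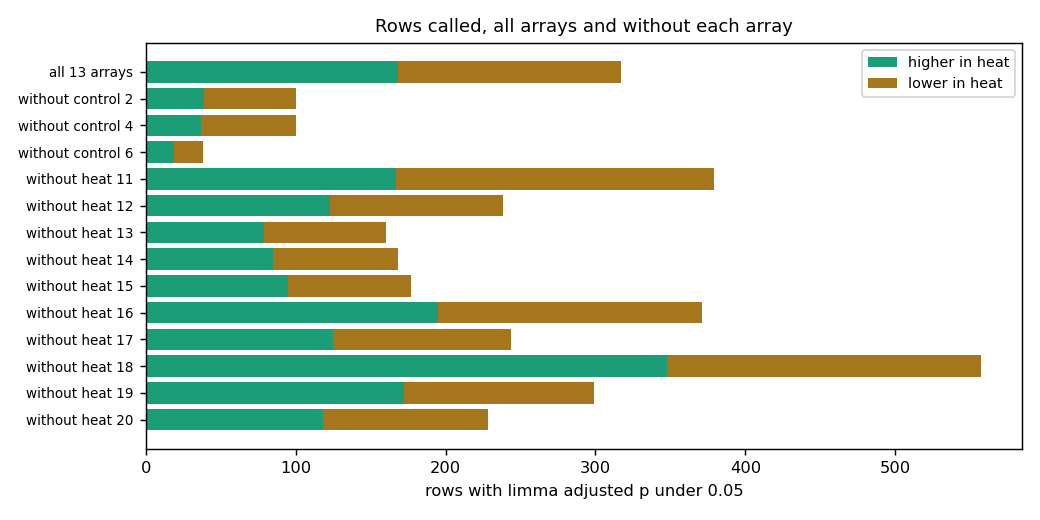
Number of rows with a limma adjusted p under 0.05, higher (green) and lower (brown) in heat trunks, with all 13 trunks and without each trunk in turn. The count falls from 317 to 38 without control 6 and rises to 557 without heat trunk 18.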

How the data were processed

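The authors deposited 1 table of log2 signals for 46 arrays, made with RMA (background correction, quantile normalization and probe summary) per the submitters' processing notes; no version, annotation or set of arrays normalized as one could be named. The log2 scale was read from the range, 3.76 to 15.89. Quantile normalization can hide a shift of most genes and move unchanged ones when many oocyte rows fall. Array upper quartiles were 10.90 to 10.95, and the number of arrays limits the precision.

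Trunks were grouped by the labels, and the 3 controls by the egg coat rows. Members and lists were chosen with earlier results of these data known. No row was filtered. limma 3.58.1 (R 4.3.3; lmFit, eBayes) gave two-sided tests, adjusted by Benjamini-Hochberg over 31475 rows. No slide, scan or batch label was available to test. Of 1149 entries in 37 lists, 1026 were found, 66 by another symbol in RefSeq (assembly GRCz12tu, names only; current symbols in brackets). Named genes were the 12 largest rises and falls without overlap among called rows that did not follow the egg coat. Several of these still correlated with it below the limit for following, such as cmlc1 (0.69) and pax5 (−0.67). Up to 4 called rows per list and a fixed panel were named too. The genes isg15, stat2, ca15a and uncalled list members were added after their values were seen. The labels list 8 juvenile controls, where the design text speaks of 10. One gene that the naming rule takes is not reported here. The test was checked on simulated data.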

Additional observations from a re-analysis of the deposited data

Results flagged for a closer look

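Of 218 groups of trunks tested with Dixon's criterion over named genes and list means, 23 held a trunk far from the others. Chance alone marks about 1 in 20 separate groups, and these groups are not separate, since list means hold named genes and rows follow one another. The 2 numbers are therefore not compared. The marks fall on few trunks, and those of heat trunk 11 are on the rows that chose the controls and on rows and means that follow them. Heat trunk 11 was far above the other heat trunks in the egg coat mean (10.4), in zp3.1 (10.0), zp3a.1 (10.7), zp2.2 (11.3), zpcx (9.47) and zp3a.2 (10.7), in the oocyte list mean (8.81), and in the rows ddx41 (8.25) and ca15b (9.45), all log2 signals. Heat trunk 18 was far below the other heat trunks in bricd5 (5.59), epd (11.4), gcm2 (5.66) and the epidermis list mean (12.5). Heat trunk 20 was low in dnmt1 (11.06).

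Among the 8 controls, trunk 2 was high in ier2 (11.9), cyp11c1 (7.78) and the means of the immediate early (10.5), NF-kB and prostaglandin (9.97) and glucocorticoid response (10.9) lists. Control 4 was low in gsdf (6.61) and the growth and thyroid list mean (9.02). Control 1 was low in hsp90aa1.1 (13.7) and control 3 in the intestine list mean (11.97). Controls 2 and 4 belong to the 3 chosen ones.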

How the results depend on the processing

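No paired analysis was possible because the juvenile heat and control samples share no replicate number. With 3 controls the calls rest on each of them, and 9 of 10 heat trunks lie below all controls in egg coat signal, so low counts do not show that other genes did not differ. Of 317 rows called, 235 did not follow the egg coat. These 2 counts became 695 and 468 in 1 fit of 18 trunks (301 of the 317 shared), 794 and 572 with array weights, 175 and 76 with the neural list mean as a covariate, and 4579 and 3569 against all 8 controls. They became 38 to 557 and 22 to 441 without 1 trunk. Alternatives chosen after seeing the data gave 0 and 0 with the heart list mean as a covariate (smallest adjusted p = 0.0736) and 164 and 68 for controls 2 and 4 against heat trunks 12 to 20. The second count was 155 at a correlation limit of 0.5. The other settings stayed within 1.5 times, at 302 to 419 called rows where all rows were tested (297 after quantile normalization of the 13 arrays, added after seeing the data) and 221 among rows above the median level. Centring arrays on their median turned 168 higher and 149 lower rows into 148 and 168, and moved the median of all rows from 0.012 to −0.026. The 3900 rows against the other 5 controls were 2420 to 3485 without 1 control. The cause of these moves was not tested.

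List medians that moved by more than the spread of heat trunks were, against the other 5 and all 8 controls, −7.66 and −6.16 for egg coat rows (from −3.94), −5.96 and −4.32 for oocyte, −3.57 and −2.52 for germ cell, −0.55 and −0.31 for cell cycle and 0.38 and 0.18 for exocrine pancreas rows. Against the other 5 only, they were −0.38 for meiosis, 0.20 for NF-kB, 0.16 for posterior hox, 0.89 for heart, 0.29 for kidney and 0.0862 for hypoxia rows. Against all 8 only, they were −0.29 for gonad somatic and 0.038 for circadian rows.

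No named gene that passed changed sign. Among those that did not pass, without 1 trunk amh lay between −0.265 and 0.173, the gene cirbp between −0.0395 and 0.0189 and the gene cyp19a1a reached −0.101. Against all 8 controls amh became 0.0573, cyp19a1a −0.595, sycp3 −0.16, dnmt1 −0.318 and cirbp 0.0312. With the neural covariate cyp11c1 became −0.028, hsp90aa1.1 0.0464 and vtg1 −0.209. With the heart covariate the gene sox9a became −0.0627, hsp90aa1.1 0.164 and the gene dnmt1 −0.0312, and the gene vtg1 became −0.0319 for controls 2 and 4 against heat trunks 12 to 20.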
